A study of Mus musculus with 15 samples.

Results

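The miRNA mir-582 is read from a single hairpin whose 2 arms, mir-582-3p and mir-582-5p, are counted separately. They are 2 of the 1836 miRNA rows of a small RNA sequencing table of mouse left ventricle. The rows were chosen by their name, and the name was selected on measured values, namely a large spread between mice of the same group, so that spread is given as a description with no test.

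The table holds 15 libraries, each from the left ventricle of 1 mouse, in 3 groups of 5 mice. Wt mice carried an intact AGAT gene, AGAT-/- mice lacked it in all tissues, and both groups were labelled as controls with no supplement. AGAT-/-hArg mice lacked AGAT too and received homoarginine from osmotic mini pumps over 4 weeks. AGAT is the enzyme (arginine:glycine amidinotransferase) that makes homoarginine and the precursor of creatine. The strain of all 3 groups was C57BL/6J, reached by 6 or more generations of backcrossing, and the mice compared were littermates, bred from parents with 1 intact copy of the gene. The labels give neither age nor sex. By the labels, sequencing lane 8 held the 10 libraries of wt and AGAT-/- mice and lane 2 the 5 of AGAT-/-hArg mice. An effect of the lane and one of homoarginine cannot be told apart.

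A miRNA hairpin is cut out of a longer transcript and trimmed to a short duplex, of which either strand can be loaded into an Argonaute protein. The loaded strand finds target mRNAs mainly through its seed, a short stretch near its start. The gene of mir-582 lies inside Pde4d, which encodes a phosphodiesterase that breaks down cyclic AMP, a messenger of adrenergic signalling in heart muscle, and intronic miRNAs can be made from the transcript of their host gene.

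Both mature sequences are printed because the rows count the reads assigned to these molecules. They come from RefSeq (GRCm38.p6), where both rows were matched by name, and the seed (bases 2 to 8) is in capitals.
mir-582-3p: uAACCUGUugaacaacugaac
mir-582-5p: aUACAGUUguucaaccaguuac

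The hairpin shows how both arms are cut from 1 precursor. It lies on the plus strand of chromosome 13 from 109324744 to 109324824 and spans 81 bases, with the 5p arm and then the 3p arm in capitals.
Mir582: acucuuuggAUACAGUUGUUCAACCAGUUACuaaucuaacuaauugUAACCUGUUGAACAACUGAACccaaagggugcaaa
The longest run over which the arms are complementary without a mismatch, printed to show how the strands of the duplex relate, is 12 bases. It runs from base 4 to base 15 of the 5p arm and from base 7 to base 18 of the 3p arm.
mir-582-5p, complementary run: CAGUUGUUCAAC
mir-582-3p, complementary run: GUUGAACAACUG

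The seeds of the arms differ from each other, and of the 1679 mature mouse miRNA names in the RefSeq table none besides the arms themselves carries either seed. The longest run of bases that mir-582-3p has in common with any of the other 1677 mature sequences is 8 bases long, and for mir-582-5p it is 10 bases. That table is not complete.

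In the GENCODE M21 annotation of GRCm38, Pde4d runs on the plus strand of chromosome 13 from 108449948 to 109953461, a length of 1503514 bases. The hairpin lies on the same strand, inside an intron of 4 of the 12 protein-coding Pde4d transcripts, and overlaps 0 Pde4d exons. Those 4 transcripts give 3 distinct introns, between 479441 and 707689 bases long, that all end at position 109740386. Pde4d mRNA was not measured in these libraries.

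Libraries held between 415608 and 486204 reads in wt mice (median 442725), between 365634 and 557398 in AGAT-/- mice (median 454326) and between 389359 and 570492 in AGAT-/-hArg mice (median 464886). Levels are given as CPM, reads divided by the TMM-scaled size of their library (edgeR). At these depths 3 reads, the upper limit that a count of 0 allows, correspond to between 4.93 and 8.20 CPM. Intervals and such limits cover counting error only.

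The 3p arm is the more abundant product of the hairpin. In wt mice 1 to 5, mir-582-3p stood at 6267, 4903, 858, 1130.2 and 690.3 CPM. In AGAT-/- mice 6 to 10 it stood at 1622, 929, 4352, 4774 and 1049 CPM, and in AGAT-/-hArg mice 11 to 15 at 2106, 802, 885, 918 and 808 CPM. Wt mice 1 and 2 and AGAT-/- mice 8 and 9 were high, mice 6 and 11 were in between, and the other 9 mice were low, so that the ranges of the 3 groups overlapped.

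The 5p arm is the less abundant product and forms the other strand of the duplex. In wt mice 1 to 5, mir-582-5p stood at 653, 504, 92.1, 149.5 and 83.8 CPM. In AGAT-/- mice 6 to 10 its level was 176, 104, 544, 602 and 114 CPM, and in AGAT-/-hArg mice 11 to 15 it was 248, 83.8, 125, 97.5 and 97.7 CPM. The same 4 mice were high as on the 3p arm, mice 6 and 11 again followed them, and the groups overlapped on this arm too. In bulk tissue, fewer cells of a type and less RNA per cell cannot be told apart.

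**Figure D1:**
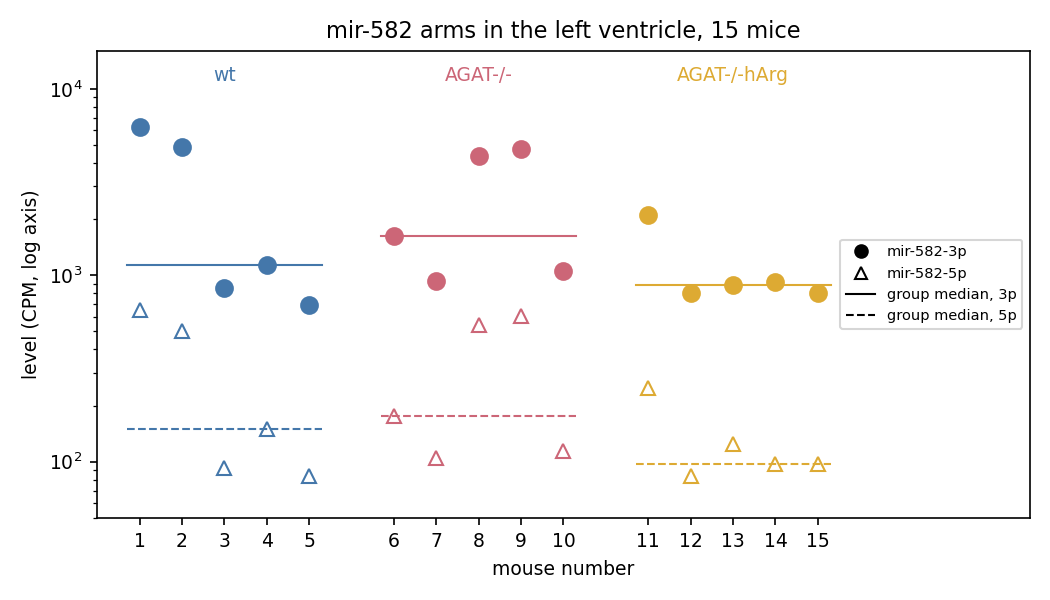
Level of mir-582-3p (filled circles) and mir-582-5p (open triangles) in each of the 15 mice, in CPM on a log axis, with a line at the median of each group. On the 3p arm wt mice 1 and 2 and AGAT-/- mice 8 and 9 sit between 4352 and 6267 CPM, and the other 11 mice sit between 690.3 and 2106 CPM.

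The read numbers behind these levels were large enough for counting error to be small. The arms together took between 314 reads (wt mouse 5) and 3160 reads (wt mouse 1) per library. That is 0.709% of the reads of wt mouse 1 (95% Clopper-Pearson interval 0.685% to 0.734%) and 0.0756% of those of wt mouse 5 (0.0674% to 0.0844%). Counted by reads within a library, mir-582-3p ranked between 11 and 60 among all rows, and mir-582-5p ranked between 61 and 138. In wt mice 1 and 2 and AGAT-/- mouse 9 the 3p row was the 11th most abundant of the library, while in wt mouse 5 it was the 60th. Ranks and shares refer to the reads in the table, which may be incomplete, since the rows of several abundant miRNAs of heart and blood stand at 0 in it, among them mir-1a-1-3p, mir-133a-1-3p and mir-451a-5p.

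Sorted by the summed level of both arms, the mice of the 3 groups were mixed. The lowest 9 ran from 774 CPM (wt mouse 5) to 1279.7 CPM (wt mouse 4), and neighbours in this order were at most 1.14-fold apart. AGAT-/- mouse 6 (1798 CPM) and AGAT-/-hArg mouse 11 (2353 CPM) came next. A step of 2.08-fold, the widest in the order, led to AGAT-/- mouse 8 (4896 CPM), AGAT-/- mouse 9 (5376 CPM), wt mouse 2 (5407 CPM) and wt mouse 1 (6919 CPM). The 11 mice below that step came from all 3 groups, and the 4 above it from wt and AGAT-/- mice.

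Within a group, the SD was between 50.9% (AGAT-/-hArg) and 94.0% (wt) of the mean. The summed level was 3066 CPM ± 2883 (SD, n = 5) in wt, 2853 CPM ± 2111 (SD, n = 5) in AGAT-/- and 1234 CPM ± 628 (SD, n = 5) in AGAT-/-hArg mice. The highest mouse exceeded the lowest 8.94-fold in wt, 5.20-fold in AGAT-/- and 2.66-fold in AGAT-/-hArg mice. The spread of AGAT-/-hArg mice rested on mouse 11: without it the other 4 had an SD of 7.17% of the mean and a 1.15-fold range. In wt and AGAT-/- mice no left-out mouse brought the SD below 64.5% of the mean. Whether the spread itself differed between the groups was not tested. The medians were 1279.7, 1798 and 1009.8 CPM in the same order of groups. The means of wt and AGAT-/- mice differed by less than the SD of either group. The mean of AGAT-/-hArg mice lay within 1 SD of both by the SDs of wt and AGAT-/- mice. By the SD of AGAT-/-hArg mice (628 CPM) it did not.

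Compared with other miRNAs, the spread stood out at its abundance. Among the 227 rows with a mean over 10 reads per library, the SD of log2 CPM around the group means was 1.13 for mir-582-3p and 1.11 for mir-582-5p, the highest and the next highest value. Counting error alone would give an SD of 0.06 for the 3p row and 0.18 for the 5p row. The median SD of the 225 other rows was 0.25. The next row was mir-5119-3p with an SD of 1.08, where its read numbers in the single libraries give a counting SD of 0.77, and then came mir-107-5p with an SD of 0.90 and mir-6538-5p with 0.78.

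Rows of like abundance had lower SDs around the group means. The 5 rows with a mean read number nearest to that of mir-582-3p (mir-1843b-5p, mir-215-5p, mir-378b-3p, let-7c-2-5p and mir-28a-3p) had SDs between 0.07 and 0.20, although mir-378b-3p had a 4.66-fold range over the mice of all groups. Of the 5 rows nearest to mir-582-5p, mir-3969-5p had an SD of 0.69 and mir-1983-3p one of 0.36, while mir-3061-3p, mir-664-5p and mir-503-3p had SDs between 0.19 and 0.22. Within AGAT-/-hArg mice alone, mir-3969-5p (SD 1.14) varied more than mir-582-5p (SD 0.61). At other abundances, mir-5119-3p (SD 1.16) and mir-362-5p (SD 0.88) were among the rows above both arms in these mice. Within AGAT-/- mice mir-107-5p (SD 1.30) lay above mir-582-3p (SD 1.12) and mir-582-5p (SD 1.21). Within wt mice the arms had the highest SDs (1.48 and 1.37). The biological coefficient of variation that edgeR estimated was 52.6% for mir-582-3p and 52.8% for mir-582-5p, where the trend at their abundance was 15.4% and 16.2%.

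**Figure D2:**
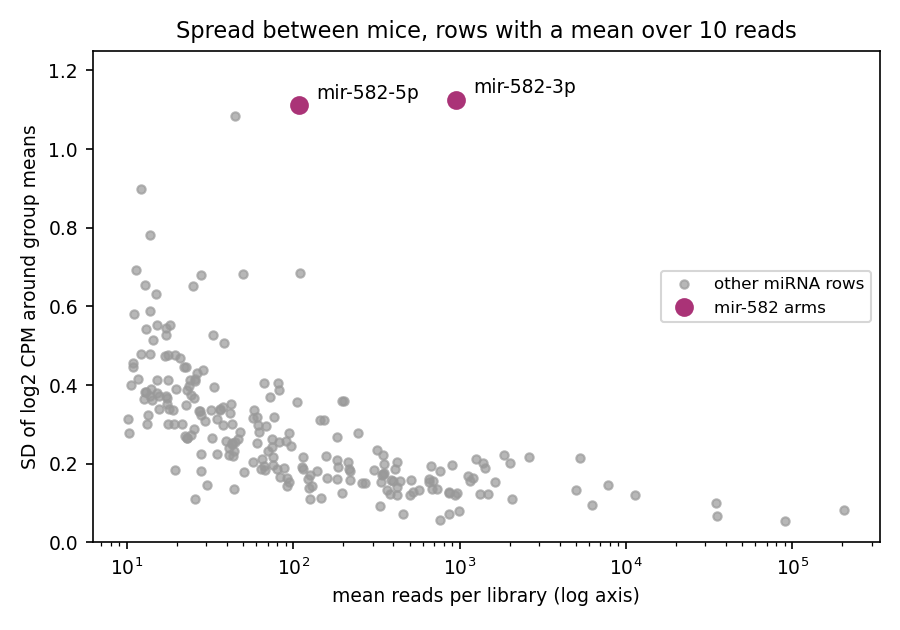
Spread between mice (SD of log2 CPM around the group means) against the mean reads per library (log axis) for 227 miRNA rows. The arms of mir-582 lie at 1.13 and 1.11, and the median of the 225 other rows is 0.25.

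While the level moved over a wide range, the ratio of the arms hardly moved. In wt mice 1 to 5 there were 9.60, 9.73, 9.32, 7.56 and 8.24 reads of the 3p arm for each read of the 5p arm. The ratio was 9.22, 8.92, 8.01, 7.93 and 9.24 in AGAT-/- mice 6 to 10, and 8.50, 9.57, 7.09, 9.42 and 8.27 in AGAT-/-hArg mice 11 to 15. Of the 4 mice with high levels, wt mice 1 and 2 had the highest ratios of all 15, while AGAT-/- mice 9 and 8 had low ones. The lowest ratios were those of AGAT-/-hArg mouse 13 and wt mouse 4, both with low levels. Over all libraries 14275 reads lay on the 3p arm and 1630 on the 5p arm, a pooled ratio of 8.76, or 89.8% of the reads on the 3p arm.

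The split between the arms varied over the 15 libraries about as much as counting error alone gives, with a chi-square per degree of freedom of 0.931 (14 degrees of freedom). For the summed reads of both arms against all other reads the same measure was 867. That value describes the spread between mice for which mir-582 was selected, and it tests nothing. Wt mouse 1, with 3160 reads, had 90.6% of them on the 3p arm (95% Clopper-Pearson interval 89.5% to 91.6%). AGAT-/-hArg mouse 13, with the lowest share of the 15 mice, had 87.6% of its 429 reads there (84.2% to 90.6%).

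Groups were compared on the log2 ratio of the arms by two-sided exact permutation tests over all splits of 10 mice into equal groups, for which the smallest possible p is 0.00794. The ratio averaged 8.89 ± 0.95 (SD, n = 5) in wt, 8.66 ± 0.65 (SD, n = 5) in AGAT-/- and 8.57 ± 1.00 (SD, n = 5) in AGAT-/-hArg mice. The log2 ratio in AGAT-/- mice minus that in wt mice was -0.03 (exact permutation p = 0.675). It was -0.02 for AGAT-/-hArg minus AGAT-/- mice (exact permutation p = 0.778) and -0.06 for AGAT-/-hArg minus wt mice (exact permutation p = 0.579). After Benjamini-Hochberg adjustment over these 3 comparisons each p was 0.778, and each difference was smaller than the spread between mice.

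**Figure D3:**
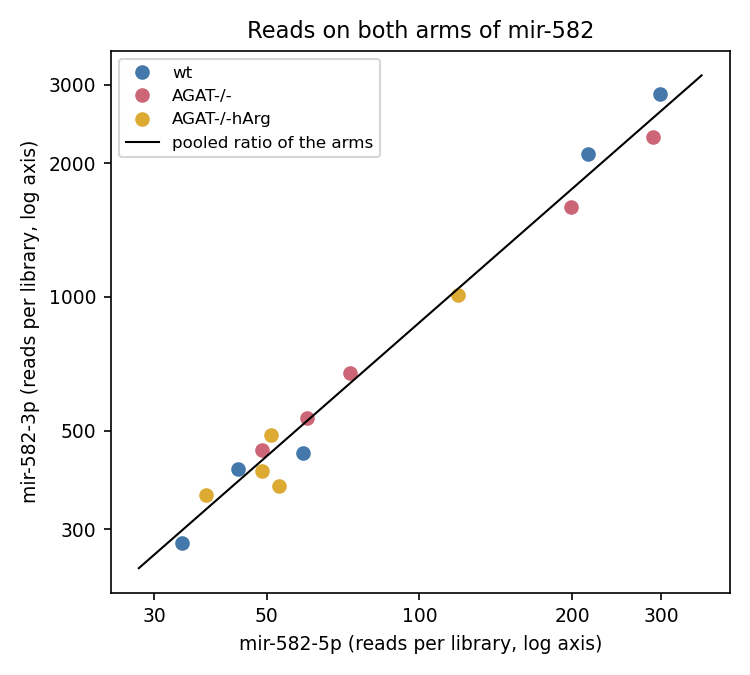
Reads of mir-582-3p against reads of mir-582-5p in the 15 libraries, both on log axes, with a line at the pooled ratio of 8.76. The points of all 3 groups follow the line over the whole range, from 280 to 2862 reads of the 3p arm.

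Both arms were high in the same mice. Over the 15 mice the log2 CPM of the arms had a Pearson r of 0.992 and a Spearman rho of 0.950, given as a description since the rows were selected on these values. With each group's mean subtracted, r was 0.991, and without the 2 mice farthest from the median it was 0.989. Within the 10 libraries of lane 8, r was 0.994, and no r was taken over the 5 libraries of lane 2, which are fewer than the 6 required here for a correlation. Among the 11 mice below the widest step, a set taken after the levels were seen, r was 0.958.

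Other hairpins with reads on both arms gave lower values. Of 29 precursors with a mean over 10 reads on each arm, the 28 besides mir-582 had a median r between arms of 0.271, ranging from -0.463 to 0.755. The highest of these were mir-21a (0.755), mir-434 (0.743) and mir-322 (0.731), named after their values were seen. The SD of the log2 ratio of arms was 0.14 for mir-582 and had a median of 0.30 over the other 28, of which 2 lay lower, mir-322 (0.09) and mir-872 (0.12). Since r grows with the spread of a row, these values are a description and were not tested against each other.

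Levels in AGAT-/- mice were compared with those in wt mice to ask whether loss of AGAT moved mir-582. The highest mice of both groups lay close together (6919 and 5407 CPM against 5376 and 4896 CPM for the summed arms), and so did the lowest (774 and 951 CPM against 1033 and 1163 CPM). In the edgeR quasi-likelihood test the log2 fold change of AGAT-/- over wt was -0.13 for mir-582-3p (SE 0.54, Benjamini-Hochberg FDR 0.971) and 0.03 for mir-582-5p (SE 0.54, FDR 0.976). This fit draws the spread of each row towards that of all rows. In its robust form, where other rows had less weight for the arms, the SEs were 0.81 and 0.79. Of the 2 arms 0 passed an FDR of 0.05 in this comparison, where 12 of 562 rows tested, 2.14%, did. An unadjusted p under 0.05 was found for 0 of the arms and for 60 of the 562 rows. The sign for the 3p arm was not stable: it was 0.41 without wt mouse 1 and -0.46 without AGAT-/- mouse 9, and the difference of mean log2 CPM was 0.13 (exact permutation p = 0.817).

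AGAT-/-hArg mice were compared with AGAT-/- mice to ask whether homoarginine moved mir-582 in the absence of AGAT. Of the 5 AGAT-/-hArg mice, 4 lay between 885 and 1016 CPM for the summed arms, below all 5 AGAT-/- mice (1033 to 5376 CPM). AGAT-/-hArg mouse 11 (2353 CPM) lay among the AGAT-/- mice. The step from AGAT-/-hArg mouse 14 to AGAT-/- mouse 7, the lowest of its group, was only 1.02-fold. The separation also depended on the TMM scaling. As an unscaled share of reads, AGAT-/-hArg mouse 13 (0.109%) lay above AGAT-/- mouse 7 (0.107%). Their Clopper-Pearson intervals overlapped (0.0988% to 0.120% and 0.0983% to 0.116%). The edgeR log2 fold change was -1.20 for mir-582-3p (SE 0.37, unadjusted p = 0.00373, FDR 0.180) and -1.23 for mir-582-5p (SE 0.41, unadjusted p = 0.00704, FDR 0.255). Neither arm passed the FDR, here or with DESeq2 or limma-voom, and 4 of 580 rows tested, 0.69%, did with edgeR. Both arms were among the 43 rows with an unadjusted edgeR p under 0.05. That p was under 0.05 for both arms with DESeq2 and limma-voom too, but 0.0714 and 0.0885 in the robust edgeR fit. The main fit had prior degrees of freedom of 13.4, so its SE and p draw on the spread of other rows as well. The robust fit had about 0.30 for the arms, and its SEs were 0.58 and 0.63. The exact permutation test of log2 CPM gave a difference of -0.98 for the 3p arm (p = 0.119) and -0.95 for the 5p arm (p = 0.190).

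The summed arms, fitted as 1 row, had a log2 fold change of -1.20 (FDR 0.154) in that edgeR comparison. With 1 library left out, the sum passed the FDR without AGAT-/- mouse 7 (log2 fold change -1.43, FDR 0.0455) and without AGAT-/-hArg mouse 11 (-1.58, FDR 0.0406). Without any other mouse it did not pass, and the FDR over all 10 such fits ran from 0.0406 to 0.580. When every row with any read was tested, the edgeR FDR was 3.59e-34 for mir-582-3p and 1.08e-14 for mir-582-5p, with prior degrees of freedom that were infinite, so that a row's own spread between mice had no weight. Over the other settings that kept all 10 mice, neither arm passed.

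AGAT-/-hArg mice were also set beside wt mice, which differ from them in genotype, supplement and lane. For the summed arms the wt mice ran from 774 to 6919 CPM and enclosed all 5 AGAT-/-hArg mice. The edgeR log2 fold change was -1.32 for mir-582-3p (SE 0.46, unadjusted p = 0.00932, FDR 0.171) and -1.19 for mir-582-5p (SE 0.45, unadjusted p = 0.0149, FDR 0.219). Of the 2 arms 0 passed, with DESeq2 and limma-voom too, against 17 of 569 rows tested with edgeR, 2.99%. Both arms were among the 71 rows with an unadjusted edgeR p under 0.05. For the 3p and 5p arm, the unadjusted p was 0.0596 and 0.0732 with DESeq2 and 0.0886 and 0.0998 with limma-voom. In the robust edgeR fit, where other rows had less weight, it was 0.0989 and 0.116, with SEs of 0.71 and 0.68. With every row that had any read tested, the FDR was 1.25e-31 and 9.12e-12, again with infinite prior degrees of freedom. The exact permutation p of log2 CPM was 0.278 for either arm, with differences of -0.84 and -0.78.

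In this comparison too the FDR of the edgeR fit rested on single libraries. For mir-582-3p it was 0.04996 without wt mouse 3 and 0.0424 without wt mouse 5, with log2 fold changes of -1.57 and -1.59, and it ran up to 0.540 with other mice left out. For the summed arms (log2 fold change -1.29, FDR 0.141 with all mice) it was 0.0444 without wt mouse 3, 0.0325 without wt mouse 5 and 0.0464 without AGAT-/-hArg mouse 11, and ran up to 0.531 with others left out. Of all rows tested, 11 passed without wt mouse 5 and 10 without AGAT-/-hArg mouse 15. Without wt mouse 1 the log2 fold change was -0.77 for the 3p arm and -0.66 for the 5p arm, and with each mouse left out that of the 5p arm ran from -1.55 to -0.66, with no FDR below 0.0643. The comparisons have mice in common, so their values are given side by side and not as separate evidence.

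The level was also set against properties of the mice and libraries, in 3 relations with Benjamini-Hochberg adjustment over them. The labels carry an animal number, of which the meaning is not stated. Neighbouring numbers held high mice and mice with lower levels: wt mouse 1, AGAT-/- mouse 6 and wt mouse 2, with the lowest numbers, had 6919, 1798 and 5407 CPM. AGAT-/- mice 8, 9 and 10, with the highest numbers, had 4896, 5376 and 1163 CPM. The 9 mice with numbers in between lay from 774 to 2353 CPM, so that the 4 highest mice were all among the 3 lowest and the 3 highest numbers, which was seen in the data and not tested. The summed level had a Pearson r of -0.0927 with animal number (permutation p = 0.740) and a Spearman rho of -0.175 (p = 0.534), adjusted p 0.740 and 0.534, both of which measure a trend in 1 direction. Without the 2 mice with the most distant numbers r was -0.325, and within lane 8 it was -0.0523.

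**Figure D4:**
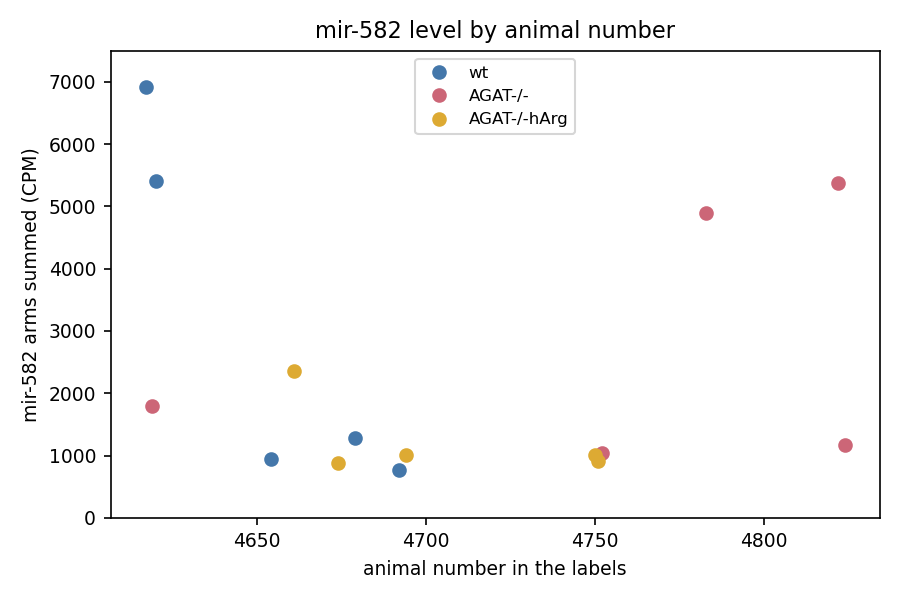
Summed level of both mir-582 arms in CPM against the animal number of the labels, 1 point per mouse, coloured by group. The AGAT-/- mice with the highest numbers, mice 9 and 10, lie at 5376 and 1163 CPM.

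Depth and library composition were the other properties. With the total reads of a library, r was -0.241 (permutation p = 0.389, adjusted 0.584) and rho was -0.175 (p = 0.533, adjusted 0.534). Without the 2 libraries of most distant depth r was 0.0019, and within lane 8 it was -0.309. Wt mice 1, 2 and 4 had nearly equal depths of 445454, 441196 and 442725 reads, and levels of 6919, 5407 and 1279.7 CPM. The part of depth in the level was not tested beyond these values.

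The share of reads on the 3 most abundant rows, between 71.5% and 73.7%, gave an r of 0.505 (permutation p = 0.0563, adjusted 0.169) and a rho of 0.600 (p = 0.0200, adjusted 0.0599). Within lane 8 r was 0.353 (permutation p = 0.314) and rho 0.612 (p = 0.0662). Without the 2 libraries of most distant share r was 0.341 and rho 0.517. With each of the 15 mice left out in turn, r ran from 0.378 to 0.646, with a permutation p from 0.0126 to 0.184. That p was at most 0.05 in 2 of these 15 settings, named after their values were seen. The r was 0.576 without wt mouse 4 (permutation p = 0.0320) and 0.646 without AGAT-/- mouse 8 (permutation p = 0.0126), with rho of 0.600 (p = 0.0260) and 0.736 (p = 0.00368). The part of this share in the level was not tested.

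Over the 15 mice no other row had an r beyond 0.7 with mir-582. Among the 225 other rows with a mean over 10 reads, the Pearson r of log2 CPM with the summed arms over 15 mice had a median of -0.02 and was positive for 108 rows. It was beyond 0.7 in either direction for 0 rows and beyond 0.5 for 13. The r values below are the extremes of 225 rows and are given as a description, with no p.

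The 8 rows most like mir-582 were mir-1199-5p (r 0.579), mir-7068-3p (0.548), mir-337-3p (0.530), mir-5709-5p (0.517), mir-329-5p (0.487), mir-208a-5p (0.487), mir-6929-3p (0.479) and mir-3060-3p (0.474). Their own spread was small beside that of mir-582, with SDs of log2 CPM between 0.13 for mir-7068-3p and 0.47 for mir-337-3p. The 11 mice below the widest step were taken by the mir-582 level itself, over a narrower range, so r among them tests nothing. Among them r was 0.190 for mir-1199-5p, -0.390 for mir-337-3p and -0.618 for mir-329-5p, lower than over all mice. For mir-7068-3p and mir-3060-3p it was 0.448 and 0.535 among those 11 mice. Of all 225 rows, 2 were beyond 0.7 among them, mir-547-3p (0.803, against 0.0297 over 15 mice) and mir-350-5p (-0.728, against -0.525), named after their values were seen.

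At the other end stood mir-874-5p (r -0.580), let-7a-1-3p (-0.552), let-7c-2-3p (-0.550) and mir-101a-5p (-0.542). The let-7a-1-3p row ran from 1436 to 2088 CPM and the let-7c-2-3p row from 1419 to 2075 CPM. Their mean reads were near equal too (866 and 864 per library). How reads matching several miRNAs were counted is not stated, so these rows may count the same molecule. With each group's mean subtracted, 2 of the 225 rows were beyond 0.7, mir-5709-5p (0.741) and mir-181c-3p (-0.713). Levels of mir-5709-5p ran only from 85.8 to 128 CPM over all mice.

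**Figure D5:**
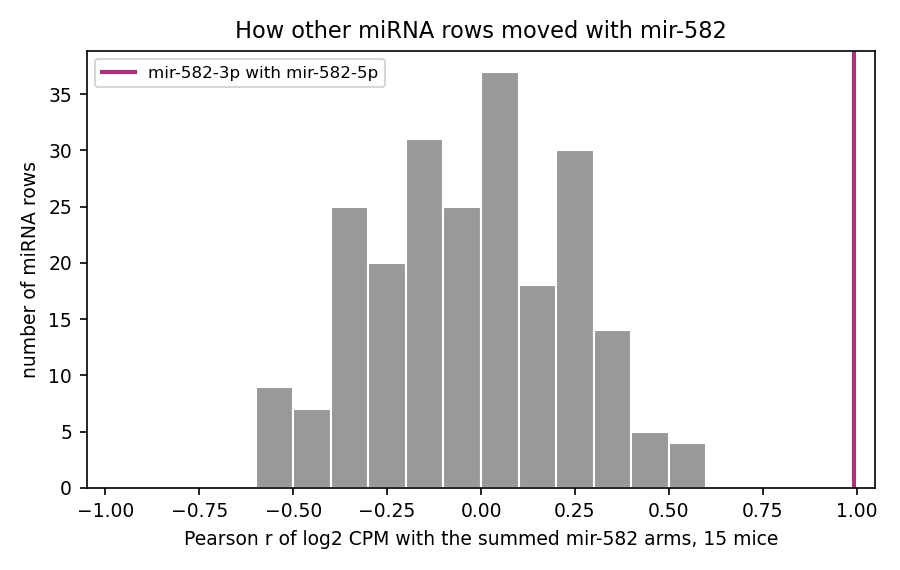
Pearson r of log2 CPM with the summed mir-582 arms over 15 mice for 225 other miRNA rows, as a histogram, with a line at the r between mir-582-3p and mir-582-5p (0.992). The other rows lie between -0.580 and 0.579.

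Rows from the same chromosome had r values of either sign, mostly negative. The annotation placed 880 of the 918 precursors (95.9%), and 0 other rows came from within 1 megabase of the hairpin. Of 44 other rows from chromosome 13, 5 had a mean over 10 reads, with a median r of -0.298. Their r was -0.580 for mir-874-5p, -0.552 for let-7a-1-3p, -0.298 for mir-24-1-5p, -0.0237 for mir-6944-3p and 0.264 for mir-1983-3p. The let-7a-1-3p row may hold the same molecule as let-7c-2-3p, which is not among the chromosome 13 rows, so the origin of its reads is open.

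Other miRNAs of introns, taken as a list, had r values around 0. The list held 32 miRNAs, of which 54 rows were in the table, 31 with reads and 17 with a mean over 10 reads. Those 17 rows had a median r of -0.08, beside -0.02 over all 225 rows, and 7 were positive, from -0.537 for mir-190a-3p (Tln2) to 0.487 for mir-208a-5p (Myh6, a heart muscle myosin). Their median SD of log2 CPM was 0.20, against 0.25 for all 225 rows. The most abundant row, mir-378a-3p (Ppargc1b), averaged 451011 CPM with an SD of 0.08, and mir-139-5p, from the phosphodiesterase gene Pde2a, had an r of 0.271 and an SD of 0.13.

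Markers of heart and skeletal muscle had reads in all mice. Of 14 such rows 8 had reads, with a summed level between 1795 and 2495 CPM, led by mir-499-5p at 913 CPM. The 3p rows of mir-1a-1, mir-1a-2, mir-133a-1 and mir-133a-2, the products for which these muscle miRNAs are known, stood at 0 in the table, while their 5p rows had reads. The 6 muscle rows with a mean over 10 reads had a median r of -0.08 with mir-582, from -0.483 for mir-133a-1-5p to 0.487 for mir-208a-5p, and 2 were positive. These rows are not 6 separate markers, since mir-499 enters with both arms. The rows mir-133a-1-5p and mir-133a-2-5p (r -0.459), with means of 219 and 220 reads, may count the same molecule.

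Markers of other cell types that the ventricle holds were looked up too. That they varied less than mir-582 follows from its selection for a large spread and tests nothing. For fibroblasts and mesenchyme 3 of 6 rows had reads, led by mir-199b-5p at 1117 CPM, with r between 0.109 and 0.241 and a summed level between 1476 and 2189 CPM. For white blood cells 7 of 12 rows had reads, led by mir-155-5p at 2908 CPM, with a summed level between 2571 and 3472 CPM, and the rows with a mean over 10 reads, mir-155-5p and mir-150-3p, had r of -0.411 and -0.0311. For red blood cells 5 of 8 rows had reads, with a summed level between 6412 and 8035 CPM. They were led by mir-486a-5p, which muscle makes too, at 3133 CPM (r 0.0184) and mir-144-5p at 3033 CPM (r -0.0603), while both rows of mir-451a and the row mir-144-3p stood at 0.

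Smooth muscle was marked mainly by mir-145a-3p, at 11664 CPM on average (r -0.252), and 4 of the 6 rows of that list had reads, with a summed level between 9544 and 16893 CPM. The row mir-145b-5p had an r of -0.136, mir-143-5p averaged 15.1 CPM and mir-143-3p stood at 0. The endothelial marker mir-126 had reads on 4 of 4 rows but at low levels, led by mir-126a-3p at 14.7 CPM, with a summed level between 8.33 and 29.3 CPM. Fat markers had reads on 3 of 4 rows, led by mir-193b-3p at 746 CPM (r -0.371), with a summed level between 897 and 1206 CPM. The part of any cell type in the level of mir-582 was not tested beyond these values.

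Markers of epithelium, neurons and sensory cells were looked up as well, and a row at 0 cannot be read as absence where rows of muscle miRNAs are at 0 too. For epithelium 4 of 8 rows had reads, led by mir-429-3p at 177 CPM (r 0.0438), with a summed level between 114 and 255 CPM. For neurons 1 of 4 rows had reads, mir-137-5p with 0.321 CPM on average, and the summed level was at most 2.47 CPM. Of the sensory and clock cluster, mir-182-5p averaged 398 CPM (r 0.193), the only one of its 2 rows with reads, with levels between 239 and 548 CPM.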

How the data were processed

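Left ventricular miRNA was sequenced in 15 mice. The authors mapped reads to murine miRBase miRNAs (release not stated) with the CLC Genomics Workbench and deposited unnormalized counts of reads per mature arm; the submitters' notes name GRCm38. How reads matching several miRNAs were counted is not stated. Members and lists were chosen with earlier results of these data known.

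Rows whose reads, added over the 10 libraries compared, exceeded 10 were fitted with edgeR 4.0.16 (R 4.3.3; TMM, glmQLFit, glmQLFTest, Benjamini-Hochberg FDR at most 0.05). Log2 CPM used a prior count of 1, and arm ratios had 0.5 added to both counts in tests. Other tests were exact permutations or permutations with 100000 resamples (scipy 1.17.1, Python 3.11.15, pandas 2.3.3). Figures used matplotlib 3.10.9. Each mouse is a replicate; group labels were taken as given.

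Alternatives were DESeq2 1.42.0, limma-voom (limma 3.58.1), DESeq2 size factors or total counts, other filters (any read, over 10 reads in each library, filterByExpr), all 15 libraries in 1 fit, the 3 most abundant rows left out, a prior count of 5, 1 read added or the share in percent for the arm ratio, lane 8 alone, and each mouse left out. A robust fit, permutation of log2 CPM and the 11 mice below the widest step were added after seeing the data.

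Rows named are both arms, the 8 highest and 4 lowest in r with the summed arms, the 5 with the largest spread and the 5 nearest in abundance to each arm, rows sharing a seed or lying within 1 megabase, and in each list the most abundant row and any with r beyond 0.7. Others were named after their values were seen. Lists were miRNAs in introns (hosts checked in GENCODE M21; names with an added letter, such as mir-145a, counted) and markers of cardiac and skeletal muscle, endothelium, smooth muscle, fibroblasts and mesenchyme, red and white blood cells, epithelium, neurons, the sensory and clock cluster, and fat. The fits were tested on simulated data.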

Additional observations from a re-analysis of the deposited data

Results flagged for a closer look

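In AGAT-/-hArg mice, mouse 11 stood apart from the other 4 on both arms of mir-582. Its mir-582-3p level was 2106 CPM, where the others ran from 802 to 918 CPM, a gap of 0.910 of the group's range. Its mir-582-5p level was 248 CPM against 83.8 to 125 CPM (gap 0.750), and the summed level was 2353 CPM against 885 to 1016 CPM (gap 0.911). A gap above 0.71 of the range was looked for in 15 groups of values from 5 mice, where chance gives about 1 in 20. The 3 values come from 1 library and are not independent. Since mir-582 was selected for its spread between mice, they describe that library and test nothing. No sample of wt or AGAT-/- mice met this limit.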

How the results depend on the processing

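Over all tested results and alternatives, direction and side of the threshold were kept in 266 cases, the sign was opposite in 25 and the threshold newly passed in 15. Numbers of rows passing stayed within 1.5 times the reported one in 55 cases and moved further in 5, and the SDs between mice ran from 1.012 to 1.174. For AGAT-/- against wt mice, the log2 fold change had the opposite sign with limma-voom (0.0818 for mir-582-3p, 0.0865 for the summed arms) and as a difference of mean log2 CPM (0.13 and 0.14). With each mouse left out in turn it ran from -0.46 to 0.41 for mir-582-3p, from -0.36 to 0.54 for mir-582-5p and from -0.47 to 0.45 for the sum.

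Testing every miRNA with at least 1 read gave, for AGAT-/-hArg against AGAT-/- mice, -1.21 (mir-582-3p, FDR 3.59e-34), -1.23 (mir-582-5p, FDR 1.08e-14) and -1.21 (sum, FDR 1.12e-34). Against wt mice it gave -1.30 (FDR 1.25e-31), -1.17 (FDR 9.12e-12) and -1.29 (FDR 6.56e-32). In these fits edgeR's prior degrees of freedom were infinite, so that a row's own spread had no weight. With that filter 8 rows passed against AGAT-/- mice and 28 against wt mice, and 2 passed against AGAT-/- mice when each library had to hold over 10 reads. The robust edgeR fit gave mir-582-3p an FDR of 0.689 against AGAT-/- mice and 0.520 against wt mice.

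With each mouse left out, the sum ran from -1.58 to -0.87 against AGAT-/- mice and from -1.69 to -0.76 against wt mice, and mir-582-3p from -1.69 to -0.77 against wt mice, where between 10 and 20 rows passed. The log2 ratio of arms ran from -0.0887 to 0.004446 (AGAT-/- against wt), from -0.0662 to 0.0415 (AGAT-/-hArg against AGAT-/-) and from -0.113 to 0.00982 (AGAT-/-hArg against wt). The r with animal number ran from -0.336 to 0.0957 and that with the reads on the 3 most abundant rows from 0.378 to 0.646. The r with total reads was 0.0019 without the 2 libraries of most distant depth. The cause of these changes was not tested.

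Groups of 5 mice with this spread limit what the tests can find, the 5p arm rests on 34 reads in wt mouse 5, and lane 2 held AGAT-/-hArg libraries alone. No paired analysis was possible because the labels do not give the litter of a mouse.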
